A study of Homo sapiens with 12 samples.

Results

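The genes described here encode the nuclear pore and the machinery that carries cargo through it. They are 55 gene names chosen by function, namely nucleoporins, importins, exportins and the genes of the RAN cycle, out of 57353 names in the count table. All 55 were present in the table, and all 55 passed the filter on low counts, which left 12998 genes to test. IPO4 passed with only 7 to 57 reads a library, whereas every other member had at least 194.

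RNA-seq was performed on MOLM-13 cells, a human acute myeloid leukemia cell line that carries an internal tandem duplication of the receptor kinase gene FLT3. Cells were cultured for 15 hours in 4 groups of 3 libraries each. They received either vehicle (DMSO) or 3 nM quizartinib (AC220), an inhibitor of FLT3, and were grown either in RPMI, the regular medium, or in hBMSC-CM, which is RPMI mixed with medium conditioned by HS-5, a human bone marrow stromal cell line. The comparisons ask what the inhibitor does to these genes in each medium and whether the stromal medium alters its effect. A single cell line was used and the stromal cells themselves were not sequenced.

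The nuclear pore complex is a large ring of nucleoporins that spans the nuclear envelope and forms the gate for RNA and protein traffic between the nucleus and the cytoplasm. Importins bind cargo in the cytoplasm and exportins bind cargo in the nucleus. The small GTPase RAN sets the direction, because RCC1 loads it with GTP on chromatin while RANGAP1 with RANBP1 promotes hydrolysis of that GTP in the cytoplasm. Proliferating cells have to assemble pores as their nuclei grow, and the exportin XPO1 is a drug target in acute myeloid leukemia.

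Library totals ranged from 19966546 to 31546104 counts. The 8 markers listed for the myeloid leukemia line were all detected, with a summed level of 1145 to 2294 CPM (counts relative to library size, scaled by the trimmed mean of M-values, TMM), highest in quizartinib in hBMSC-CM. The sum hides opposite movements. Between quizartinib in RPMI and in hBMSC-CM, 3 of the 8 were called higher (LYZ most, 352 to 1009 CPM). Another 3 were called lower (FLT3 most, 452 to 157 CPM), beside 35.9% higher and 33.9% lower of all genes. Of 12 stromal markers, 6 (COL3A1, COL5A1, LUM, DCN, THY1 and POSTN) were at 0 in every library. The summed stromal level was 3.76 to 4.19 CPM for vehicle and 10.9 to 13.3 CPM for quizartinib libraries of the RPMI arm, and 3.18 to 3.98 CPM and 6.32 to 6.92 CPM in hBMSC-CM. The sum was thus highest with quizartinib in RPMI, where no stromal medium was added. There it rested mainly on TAGLN (6.16 CPM, 2.54 with vehicle) and COL1A1 (4.59 CPM, 0.177 with vehicle). With quizartinib, these and FN1 (0.627 to 0.369 CPM) were lower in hBMSC-CM than in RPMI, while PDGFRB (0.485 to 0.759 CPM) was higher. COL1A2 and SPARC had only 5 and 19 reads over all libraries. Mitochondrial genes took a mean share of 0.726% of counts with vehicle and 1.05% with the drug in RPMI, and of 0.511% and 0.856% in the conditioned medium. It moved with the drug, and its part in the results below was not tested. The study's reporting checklist calls its replicates biological in general, while the labels do not say which libraries came from separate cultures, so p-values measure the spread between these libraries. A CPM is a share of the library, and RNA per cell cannot be told apart from it.

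With quizartinib, the transcripts of nearly the whole transport system fell in both media, and in most of the genes the fall was smaller in hBMSC-CM. The 55 genes together held 12520.5, 12552 and 12407 CPM in the 3 vehicle libraries in RPMI and 7303, 7151 and 7105 CPM with quizartinib. In hBMSC-CM they held 12887, 12942 and 12674 CPM with vehicle and 9273, 9138 and 8891 CPM with quizartinib. Both vehicle groups lay above both quizartinib groups, and quizartinib in hBMSC-CM lay between vehicle and quizartinib in RPMI. As means, the sums were 12493 ± 76.3, 7186 ± 103, 12834 ± 142 and 9101 ± 194 CPM (SD, n = 3), so that quizartinib left 57.5% of the vehicle level in RPMI and 70.9% of it in hBMSC-CM.

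**Figure D1:**
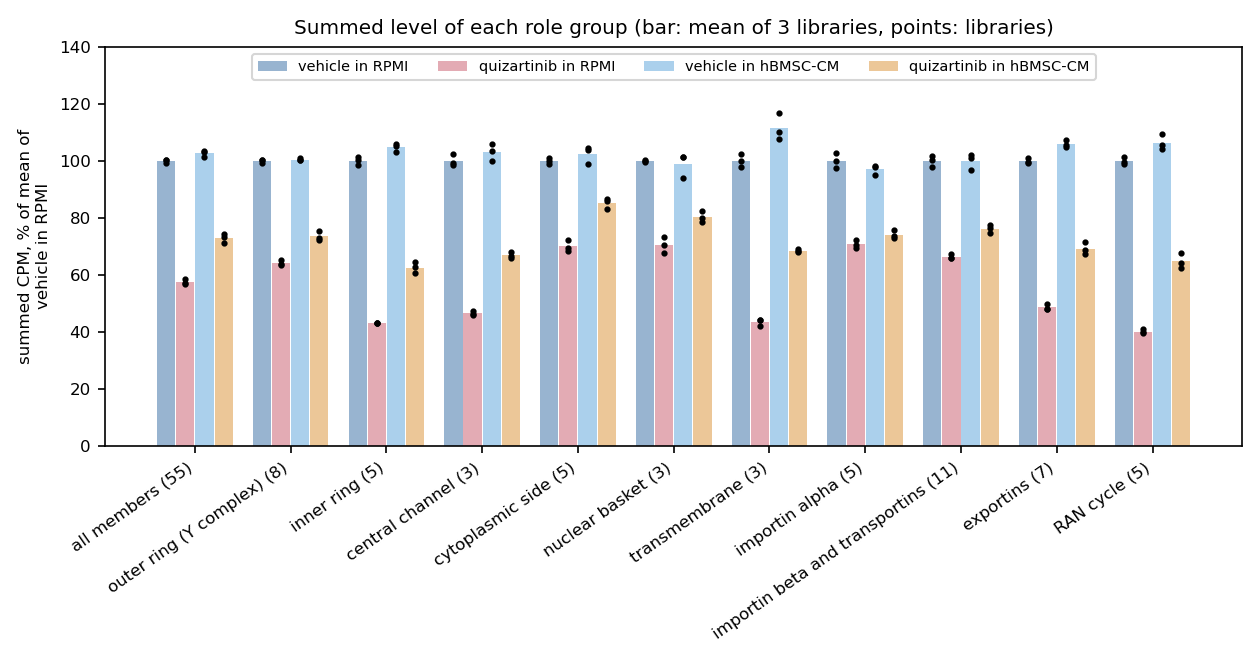
Summed CPM of all 55 genes and of the 10 role groups, as a percent of the mean of vehicle in RPMI, with bars for the mean of 3 libraries, points for single libraries and the number of genes in parentheses. With quizartinib in RPMI the groups stand between 40.0% for the RAN cycle and 70.7% for the importin alpha genes, and higher in hBMSC-CM.

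Gene by gene, 52 of the 55 fell in RPMI (quasi-likelihood test of edgeR, Benjamini-Hochberg adjusted p under 0.05), beside a background of 39.4% of all tested genes that were called lower. None was called higher by edgeR, none at an unadjusted p under 0.05 (0 genes), and 0 by DESeq2 or limma, whereas 39.8% of all genes were called higher. A decrease of at least 2-fold was called for 22 of the 55, beside 11.9% of all genes. The median log2 fold change was -0.78 over the 55 genes and 0.02 over all tested genes. The drug and vehicle libraries were without overlap in all 55 genes, which also held for 81.1% of all genes.

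In hBMSC-CM the same contrast called 53 of the 55 lower, beside 33.6% of all genes, and again 0 higher by edgeR (33.5% of all genes), by DESeq2 and limma, or at an unadjusted p under 0.05. RANBP1 alone fell by at least 2-fold there, beside 2.02% of all genes. The median log2 fold change was -0.52, against 0.01 over all genes, and the groups were without overlap in 52 members and in 68.3% of all genes.

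**Figure D2:**
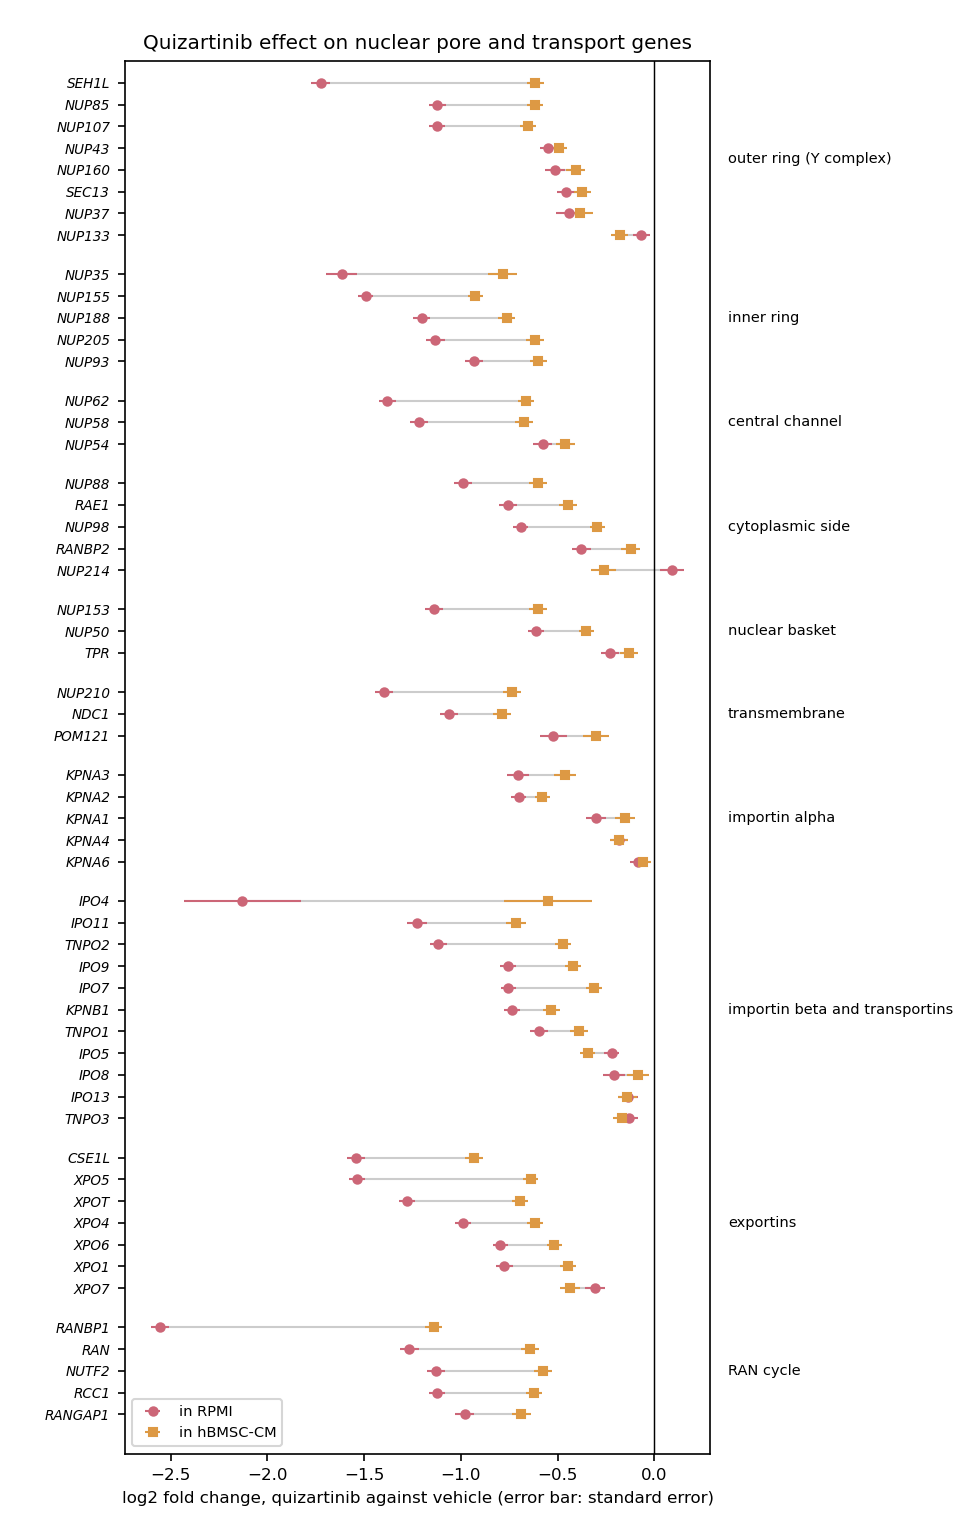
Log2 fold change of quizartinib against vehicle for each of the 55 genes, grouped by role and ordered within a role by the change in RPMI, with circles for RPMI, squares for hBMSC-CM and error bars for the standard error. The squares lie to the right of the circles in most genes, and NUP214 is the only gene with a circle right of 0, at 0.09.

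The counts of genes called lower in each role group below stand beside 39.4% of all genes in RPMI and 33.6% in hBMSC-CM. Of the 10 role groups, the RAN cycle kept the smallest share of its summed vehicle level with quizartinib in RPMI. RANBP1 (chromosome 22, 20115938 to 20127355, plus strand, hg38), the cofactor that helps RANGAP1 to turn RAN off, stood at 261, 269 and 263 CPM in the vehicle libraries in RPMI and at 45.5, 43.2 and 46.6 CPM with quizartinib. In hBMSC-CM it stood at 301, 304 and 319.7 CPM with vehicle and 144, 140.1 and 135 CPM with quizartinib. The 4 groups did not overlap, and drug-treated cells held more of it in hBMSC-CM than in RPMI. RANBP1 decreased by 2.55 (log2) in RPMI (SE 0.05, adjusted p = 4.3e-21, edgeR), the deepest change of any member, and by 1.14 in hBMSC-CM (SE 0.04, adjusted p = 3.1e-15, edgeR).

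RAN itself, the GTPase, was the most abundant member per kilobase of transcript in every group but quizartinib in RPMI, where KPNA2 stood slightly above it. Its libraries held 732, 724 and 722 CPM for vehicle and 309, 293 and 303 CPM for quizartinib in RPMI. In hBMSC-CM they held 747, 743 and 793 CPM and 519, 484 and 458 CPM. Quizartinib libraries lay below vehicle libraries in each medium, by 1.27 on the log2 scale in RPMI (SE 0.05, adjusted p = 4.1e-16, edgeR) and by 0.64 in hBMSC-CM (SE 0.05, adjusted p = 1.4e-10, edgeR). The annotation lists 9 pseudogene copies of RAN, so that reads may have been shared among them.

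The exchange factor RCC1 went from 241 ± 2.61 to 111 ± 2.63 CPM in RPMI and from 246 ± 8.33 to 159.8 ± 3.06 CPM in hBMSC-CM (SD, n = 3). RANGAP1, the GTPase activator, went from 237 ± 9.55 to 119.9 ± 7.57 CPM and from 251 ± 2.92 to 155 ± 7.26 CPM. NUTF2, the carrier that brings RAN back into the nucleus, went from 174 ± 8.66 to 79.7 ± 0.803 CPM and from 180.0 ± 8.32 to 121 ± 5.01 CPM. All 5 genes of the cycle were thus lower with the drug in both media, and the summed level of the group fell to 40.0% of vehicle in RPMI and to 60.8% in hBMSC-CM. RCC1 shares 6.22% of its exon bases with the overlapping gene SNHG3, and NUTF2 has 7 annotated pseudogene copies.

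**Figure D3:**
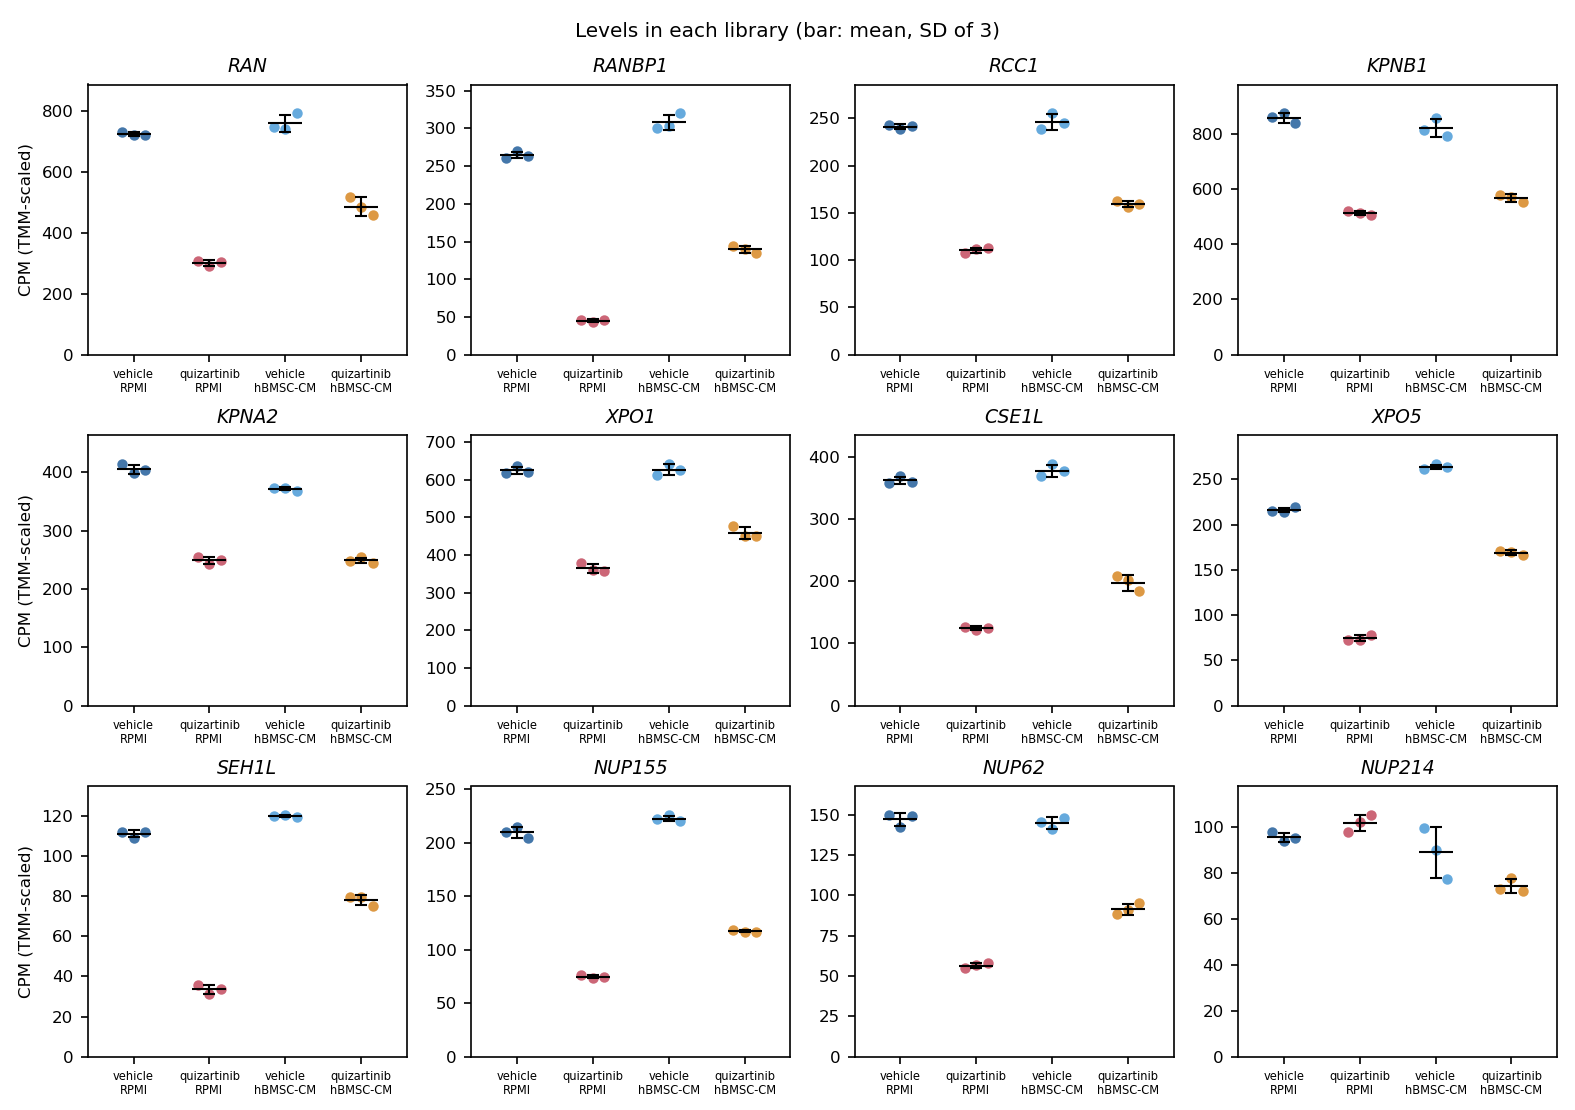
TMM-scaled CPM of 12 members in each of the 12 libraries, with points for libraries and bars for the mean and SD of 3. In 11 of the 12 panels both quizartinib groups lie below both vehicle groups, and NUP214 is the exception.

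Among the 7 exportins all fell in both media. CSE1L, which returns importin alpha to the cytoplasm, had 357, 368 and 359.6 CPM with vehicle and 127, 121 and 125 CPM with quizartinib in RPMI. Its levels in hBMSC-CM were 368, 387 and 376 CPM and 208, 201 and 184 CPM. It decreased by 1.54 (log2) in RPMI (SE 0.05) and by 0.93 in hBMSC-CM (SE 0.05). XPO5 (chromosome 6, 43522334 to 43576038, minus strand), the exporter of microRNA precursors, changed as far in RPMI (-1.54) but less in hBMSC-CM (-0.64). The values of XPOT, the exporter of transfer RNA, were -1.28 and -0.69.

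XPO1 (chromosome 2, 61476032 to 61538741, minus strand), also called CRM1, exports proteins that carry a leucine-rich signal. It stood at 619, 635 and 619 CPM with vehicle and 379, 359 and 356 CPM with quizartinib in RPMI. In hBMSC-CM it stood at 611, 640.0 and 626 CPM and 477, 449.8 and 449 CPM. The log2 fold change was -0.78 in RPMI (SE 0.04, adjusted p = 3.0e-13, edgeR) and -0.45 in hBMSC-CM (SE 0.04, adjusted p = 8.1e-09, edgeR), and of the exportins only XPO7 had smaller estimates, -0.31 and -0.44.

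Importins fell unevenly. The 11 genes of the importin beta and transportin group were all called lower in RPMI, beside 39.4% of all genes. In hBMSC-CM 10 of them were, beside 33.6% of all genes, and IPO8 (log2 fold change -0.08, adjusted p = 0.19, edgeR) was not. KPNB1, the main importin beta, went from 859, 873 and 837 CPM to 521, 513 and 507 CPM in RPMI and from 814, 856 and 793 CPM to 578, 572 and 553 CPM in hBMSC-CM. The vehicle and drug libraries did not overlap in either medium, with log2 fold changes of -0.74 (SE 0.04) and -0.53 (SE 0.04). IPO11 and TNPO2 fell by at least 2-fold in RPMI (-1.23 and -1.12 on the log2 scale), while IPO13, TNPO3, IPO8 and IPO5 changed by only -0.14, -0.13, -0.21 and -0.22. By library size only or upper-quartile factors, IPO8, IPO13 and TNPO3 lost their call in RPMI, and IPO13 and TNPO3 that in hBMSC-CM. At a threshold of 0.01, IPO13 and TNPO3 lost the call in RPMI and IPO13 that in hBMSC-CM. Some fits without 1 library also lost IPO13 in either medium or TNPO3 in RPMI.

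IPO4 had the largest fold change of the importins, but on few reads. Its levels were 1.71, 1.68 and 1.52 CPM with vehicle and 0.502, 0.276 and 0.341 CPM with quizartinib in RPMI. In hBMSC-CM they were 1.54, 1.55 and 2.71 CPM and 1.05, 1.44 and 1.45 CPM, and those groups did not overlap although the adjusted p was only 0.039 (edgeR). The log2 fold change in RPMI was -2.13 (SE 0.30, adjusted p = 1.4e-06, edgeR). A neighbouring gene on the same strand covers 68.7% of the exon bases of IPO4, so its value is uncertain, and it stood at the bottom of the order per kilobase.

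The importin alpha genes, the adaptors that recognise classical import signals, had the smallest median change of the 10 role groups, -0.30 in RPMI and -0.18 in hBMSC-CM. KPNA2 had 414, 399 and 404 CPM with vehicle and 255, 243 and 249 CPM with quizartinib in RPMI. In hBMSC-CM it had 373, 373 and 369 CPM and 247, 255 and 245 CPM. Its quizartinib libraries overlapped between the media, and it decreased by 0.70 (log2) in RPMI (SE 0.04) and by 0.58 in hBMSC-CM (SE 0.04). KPNA3 changed by -0.70 and -0.46, KPNA1 by -0.30 and -0.15, and KPNA4 by -0.18 and -0.18, all called. With scaling by library size only or by upper-quartile factors, KPNA4 lost its call in both media and KPNA1 in hBMSC-CM. The call of KPNA1 in hBMSC-CM was also lost at a threshold of 0.01 and without quizartinib in hBMSC-CM replicate 1. KPNA6 was not called in either medium, with log2 fold changes of -0.08 and -0.06 (adjusted p = 0.077 and 0.22, edgeR).

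Among the scaffold genes, the inner ring anchors the channel to the membrane, and all 5 of its genes fell in both media. NUP155 went from 209.8, 215 and 205 CPM to 76.2, 73.6 and 74.2 CPM in RPMI and from 222, 226 and 220.3 CPM to 118, 116 and 117 CPM in hBMSC-CM. The 4 groups did not overlap, and the log2 fold changes were -1.49 (SE 0.04) and -0.93 (SE 0.04). NUP35 (-1.62 and -0.78), NUP188 (-1.20 and -0.76), NUP205 (-1.13 and -0.62) and NUP93 (-0.93 and -0.60) moved the same way.

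In the outer ring, or Y complex, 7 of 8 genes fell in RPMI and all 8 in hBMSC-CM. SEH1L (chromosome 18, 12947133 to 12987536, plus strand), a beta-propeller subunit that also belongs to the GATOR2 complex of amino acid sensing, had 112, 109 and 112 CPM with vehicle and 35.8, 31.3 and 33.8 CPM with quizartinib in RPMI. In hBMSC-CM it had 120.0, 120.1 and 119 CPM and 79.7, 79.4 and 75.2 CPM. It decreased by 1.72 (log2) in RPMI (SE 0.05, adjusted p = 3.0e-18, edgeR) but by 0.62 in hBMSC-CM (SE 0.05, adjusted p = 1.5e-10, edgeR). SEC13, the other subunit shared with GATOR2, changed by -0.46 and -0.37. NUP133 was not called in RPMI (-0.07, adjusted p = 0.15, edgeR), although its libraries did not overlap, and fell by 0.18 in hBMSC-CM. Its call in hBMSC-CM was lost with scaling by library size only.

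The 3 channel nucleoporins, whose phenylalanine-glycine repeats form the permeability barrier, all fell in both media. NUP62 held 149.6, 142 and 149 CPM with vehicle and 54.7, 56.9 and 57.9 CPM with quizartinib in RPMI, and 146, 141 and 148 CPM and 88.6, 90.6 and 95.2 CPM in hBMSC-CM. The log2 fold changes of NUP62 were -1.38 (SE 0.04) and -0.66 (SE 0.04), beside -1.22 and -0.67 for NUP58 and -0.58 and -0.46 for NUP54. The membrane-spanning nucleoporins NUP210 (-1.40 and -0.74) and NDC1 (-1.06 and -0.79) fell as well. POM121 changed by -0.52 and -0.30, and its reads may be shared with the near-identical copy POM121C.

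At the faces of the pore, 70.0% of the summed vehicle level was left on the cytoplasmic side and 70.4% in the nuclear basket in RPMI, against 64.1% in the outer ring. The order differed by the median log2 fold change, which was -0.69 on the cytoplasmic side, -0.61 in the basket and -0.53 in the outer ring. RANBP2 (453 CPM with vehicle in RPMI) and TPR (629 CPM) held much of the sums. In the basket, the log2 fold change in RPMI was -1.14 for NUP153, -0.61 for NUP50 and -0.23 for TPR, which forms its filaments, and in hBMSC-CM -0.60, -0.35 and -0.13. On the cytoplasmic side it was -0.99 for NUP88, -0.76 for the mRNA export factor RAE1, -0.69 for NUP98, a fusion partner in acute myeloid leukemia, and -0.38 for RANBP2, a SUMO ligase with near-identical gene copies. In hBMSC-CM these 4 genes changed by -0.60, -0.45, -0.30 and -0.12, all called. The hBMSC-CM calls of RANBP2 and TPR were lost by library size only, by upper-quartile factors and at a threshold of 0.01. They were also lost without quizartinib in hBMSC-CM replicate 3 or vehicle in hBMSC-CM replicate 1 or 2. With only the 2 groups compared, the call of RANBP2 was lost. Genes on the opposite strand cover 35.5% of the exon bases of NUP88, and strand use in the counting is not given in the sources used here.

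NUP214 (chromosome 9, 131125573 to 131234663, plus strand), the partner of NUP88 on the cytoplasmic side, was the member that stood apart. It had 97.8, 93.9 and 95.1 CPM with vehicle and 98.0, 102 and 105 CPM with quizartinib in RPMI. In hBMSC-CM it had 99.7, 90.2 and 77.3 CPM and 73.1, 78.0 and 72.1 CPM. The drug libraries lay slightly above vehicle in RPMI, a difference called under scaling by library size only or by upper-quartile factors, whereas in hBMSC-CM the lowest vehicle library was below the highest drug library. The log2 fold change was 0.09 in RPMI (SE 0.06, adjusted p = 0.2, edgeR) and -0.26 in hBMSC-CM (SE 0.06, adjusted p = 0.0011, edgeR).

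Whether the stromal medium altered the drug effect was tested by the interaction term, the log2 fold change in hBMSC-CM minus that in RPMI. It was positive, that is the decrease was smaller in hBMSC-CM, and passed the threshold in 37 of 55 members, beside 26.4% of all genes, and it was negative in 1 member, NUP214 (-0.35, SE 0.09, adjusted p = 0.003, edgeR), beside 18.8% of all genes. The shares over all genes include genes that rose with the drug. Of all genes called lower in RPMI, 90.8% had a smaller decrease or an increase in hBMSC-CM. The same held for 47 of the 52 members called lower, so the members did not stand out from such genes. The median interaction was 0.33 over the members and 0.02 over all genes. It was at least 1 in 3 members, RANBP1 (1.41, SE 0.06, adjusted p = 9.3e-14, edgeR), SEH1L (1.11, SE 0.07, adjusted p = 1.3e-11, edgeR) and IPO4 (1.58, SE 0.39, adjusted p = 0.0024, edgeR), beside 4.94% of all genes.

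By role group, the interaction passed in all 5 RAN cycle genes, all 5 inner ring genes and 6 of 7 exportins, where XPO7 (-0.13) did not pass. In the outer ring it passed in 3 of 8, and in the importin alpha group in 1 of 5, KPNA3 (0.24, adjusted p = 0.018, edgeR). The called interactions of these 5 role groups were positive, beside 26.4% of all genes. The shares of the outer ring (37.5%) and of the importin alpha group (20%) were near that background. The call of KPNA3 was lost without quizartinib in RPMI replicate 3 (0.17) and without vehicle in RPMI replicate 1 (0.20) or 3 (0.21). KPNA2 (0.12, SE 0.05, adjusted p = 0.072, edgeR) did not pass, although it did when scaled by library size only, with no filter on low counts and with filterByExpr, while XPO1 (0.33), KPNB1 (0.20), RCC1 (0.50), RAN (0.62), CSE1L (0.61) and XPO5 (0.90) did.

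The 2 drug contrasts share no library, so the responses can be set side by side. Across the 55 genes the log2 fold changes had a Pearson r of 0.868 and a Spearman rho of 0.892, and across all 12998 tested genes r was 0.863, which describes genes measured in the same libraries and is no test. Of the 52 members lower in RPMI, 51 were lower in hBMSC-CM as well, which held for 76.5% of all genes called lower in RPMI. The change was smaller there in 47 of the 52, a share near the 90.8% of all genes called lower in RPMI, and choosing genes for a decrease in RPMI itself favours a smaller change in the other medium. The hBMSC-CM change divided by the RPMI change had a median of 0.58 over these 52 genes and 0.49 over the 5125 genes called lower in RPMI. By this median, the decrease of the members was reduced less than that of all genes called lower. The 5 members without a smaller change were KPNA4, IPO5, IPO13, TNPO3 and XPO7, and none passed the interaction test of edgeR over all 12 libraries with TMM factors. IPO5 (-0.13, adjusted p = 0.07, edgeR) was called with a negative interaction by the DESeq2 Wald test, by limma-voom, with DESeq2 size factors or upper-quartile factors, and without quizartinib in hBMSC-CM replicate 1. XPO7 (-0.13) was called without vehicle in hBMSC-CM replicate 3.

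**Figure D4:**
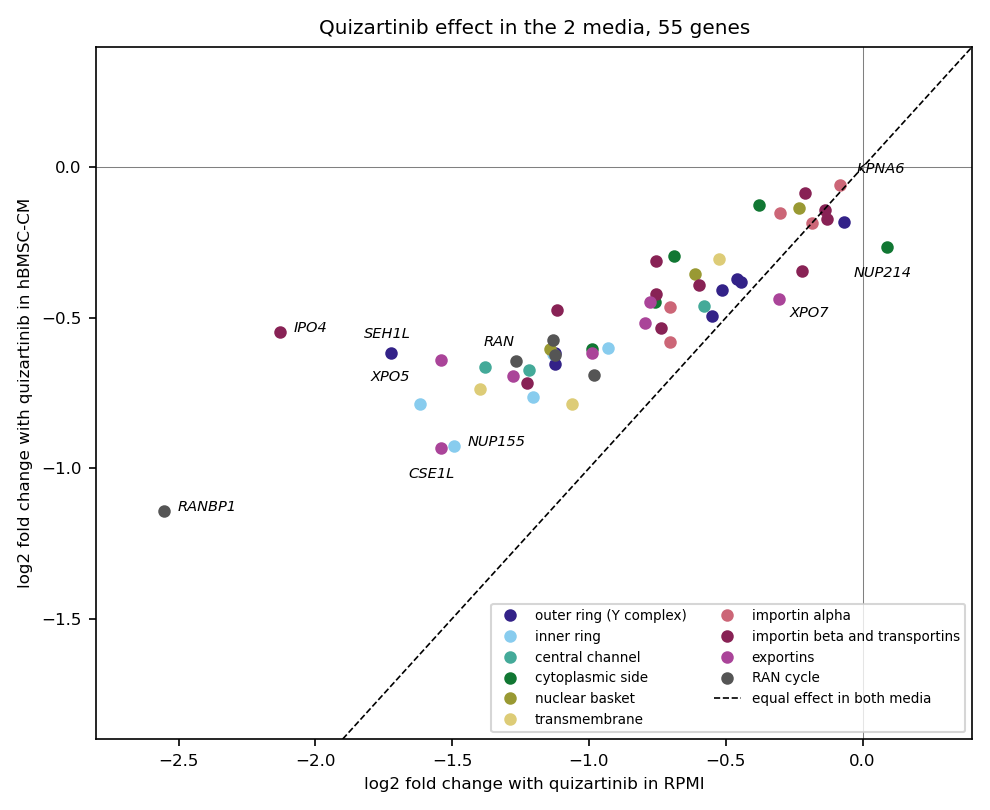
Log2 fold change with quizartinib in RPMI (horizontal axis) and in hBMSC-CM (vertical axis), 1 point for each of the 55 genes, coloured by role, with a dashed line where both would be equal. Most points lie above the line, RANBP1 furthest left at -2.55, and NUP214 lies below it at the right.

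Among quizartinib-treated cells, 42 members had a higher level in hBMSC-CM than in RPMI, beside 35.9% of all genes, and 2 were lower, NUP214 (-0.45, SE 0.06) and NUP133 (-0.17, SE 0.04), beside 33.9% of all genes. The comparison shares its libraries with the drug contrasts. The median difference was 0.39 on the log2 scale, against 0.01 over all genes. At least 2-fold higher were IPO4 (1.79), RANBP1 (1.63), SEH1L (1.22), XPO5 (1.19) and NUP35 (1.02), beside 7.18% of all genes. RAN was higher by 0.69, XPO1 by 0.33 and KPNB1 by 0.14. For KPNA2 the libraries of the 2 media overlapped, and its difference of -0.00133 was not called (adjusted p = 0.98, edgeR).

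Without the drug few members differed between the media. In vehicle-treated cells 9 members were higher in hBMSC-CM, beside 16.6% of all genes, and 2 were lower, beside 15.5% of all genes. The 9 higher members are thus a share near the background. The largest increase was that of XPO5, from 215, 214 and 219 CPM in RPMI to 261, 266 and 263 CPM in hBMSC-CM (0.29 on the log2 scale, SE 0.04, adjusted p = 1.0e-05, edgeR), followed by RANBP1 (0.22, SE 0.04). NUP35 (0.19), NUP210 (0.17), NDC1 (0.15), KPNA3 (0.15), NUP153 (0.13), NUP88 (0.12) and XPO4 (0.11) were the others, and KPNA2 (-0.13) and NUP50 (-0.12) the 2 that were lower. Leaving out 1 library moved the count of higher members to between 4 and 10, with 4 without vehicle in hBMSC-CM replicate 2 or vehicle in RPMI replicate 3, and 5 without vehicle in RPMI replicate 2. The count of lower members went to 1 without vehicle in hBMSC-CM replicate 3 or any 1 vehicle library in RPMI.

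Set against vehicle in RPMI, cells with both quizartinib and hBMSC-CM still had 50 members lower, beside 31.4% of all genes, and 0 higher (30.6% of all genes) by edgeR, DESeq2 and limma and at an unadjusted p under 0.05. The median was -0.47, against 0.01 over all genes, and no member was lower by at least 2-fold, beside 2.23% of all genes. RANBP1 (-0.92, SE 0.04), CSE1L (-0.87, SE 0.05) and NUP155 (-0.84, SE 0.04) remained furthest below that reference. KPNA1, KPNA6, RANBP2, IPO4 and IPO13 were not called. This contrast shares libraries with those above.

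Levels compared between genes are given per kilobase of the canonical transcript. In vehicle-treated cells in RPMI, RAN stood first with 293 ± 2.13 CPM per kb (SD, n = 3), then RANBP1 with 217 ± 3.54, KPNA2 with 205 ± 3.82 and KPNB1 with 141 ± 3.02. XPO1 followed with 125 CPM per kb, and POM121, KPNA1 and IPO4 closed the order with 9.12, 6.61 and 0.467. With quizartinib in RPMI, RANBP1 dropped to 36.9 CPM per kb, while KPNA2 stood at 126 and RAN at 122. Where length was taken over all merged exons instead, RAN stayed first and IPO4 last, but RANBP1 moved to place 6 and XPO1 to place 19 of the 55, so places in the order can depend on the length used.

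**Figure D5:**
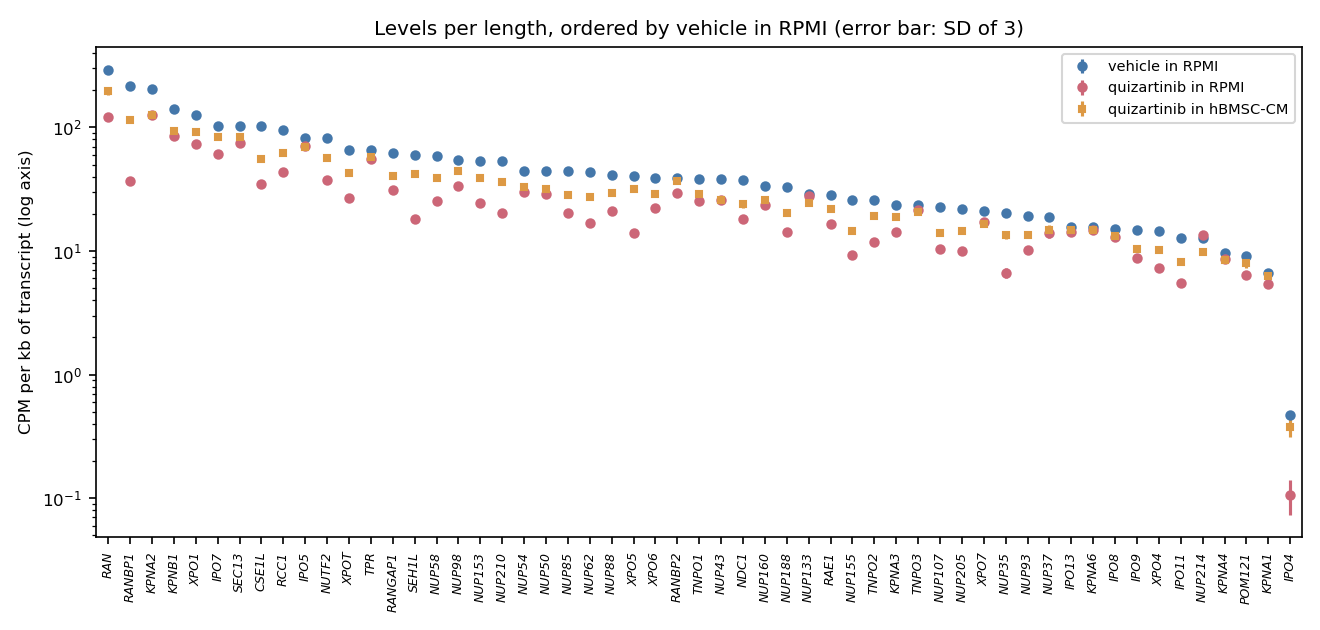
Mean level per kilobase of canonical transcript (log axis) of the 55 genes, ordered by vehicle in RPMI, with error bars for the SD of 3 libraries and 3 of the 4 groups shown. RANBP1, second in the order at 217 CPM per kb, falls to 36.9 with quizartinib in RPMI, and KPNA2 keeps nearly the same level with quizartinib in both media.

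Further genes of the same pathways were described by lists chosen by function. Of 15 tested further pore and receptor genes, 10 were lower and 2 higher with quizartinib in RPMI (39.4% and 39.8% of all genes), with a median of -0.34. The Y complex recruiter AHCTF1, also called ELYS, changed by -0.92 (log2), 176 to 93.2 CPM, whereas KPNA5, an importin alpha outside the 55, rose by 0.78, from 24.3 to 41.5 CPM. In hBMSC-CM 10 were lower and 1 higher (33.6% and 33.5% of all genes), with a median of -0.34. A positive interaction was called in 4 and a negative one in 2, shares near those of all genes (26.4% and 18.8%).

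Of 25 tested mRNA export genes, 17 were lower and 3 higher with quizartinib in RPMI (median -0.21), beside 39.4% and 39.8% of all genes. In hBMSC-CM 12 were lower and 2 higher (median -0.10), beside 33.6% and 33.5%. NXT1, the partner of the export receptor NXF1, changed by -2.26 (log2), 21.4 to 4.50 CPM, and ALYREF, an adaptor of the export complex, by -1.40. The receptor NXF1 (0.29) and the second partner gene NXT2 (0.95) rose in RPMI. The interaction was positive in 14 of the 25 genes, among them NXT1 (1.51, adjusted p = 3.3e-10, edgeR), and negative in 1, NXT2 (-0.44), beside 26.4% and 18.8% of all genes.

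Beside the transport genes, 20 proliferation genes were described. With quizartinib 19 of them fell in RPMI (median -1.11) and 20 in hBMSC-CM (median -0.79), beside 39.4% and 33.6% of all genes. Among drug-treated cells 9 were higher and 7 lower in hBMSC-CM, beside 35.9% and 33.9% of all genes, so the share of lower genes was near the background. The replication genes MCM2 (1.77) and MCM4 (1.85) were higher there, and the mitotic genes MKI67 (-0.41), TOP2A (-0.44) and PLK1 (-0.40) lower. CDK1 (-0.09), AURKB (-0.10), BIRC5 (-0.05) and CCNA2 (0.04) were not called. The part of a changed share of cycling cells in the transport values was not tested.

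Promoter sequences were examined because the members moved together. RefSeq windows of 300 bases on GRCh38.p14, from 250 before to 50 after the start, were matched for 50 of the 55 genes and searched on both strands. RANBP1, the most lowered member, and XPO5 were among the genes without a window. The E-box CACGTG occurred in 7 of 50 members (14%), against 10.81% of 8666 tested genes, and the ETS motif CCGGAAGT in 9 (18%), against 9.901%. The NRF1 motif occurred in 3 (6%), against 2.573%, and an E2F motif, TTTGGCGC or TTTCCCGC, in 1 (2%), NUP155, against 4.096%. These counts are small and describe letters in a window.

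The 250 bases before the start are shown for a deeply lowered GTPase gene, for the inner ring gene with a pair of E-boxes, and for a member not called lower in RPMI, 5′ to 3′ on the gene's strand, which is the plus strand for all 3. Capitals mark the E-box, and positions are counted back from the start. RAN has it at -102 (chr12:130871816-130872065), NUP188 at -77 and -30 (chr9:128947449-128947698), while NUP214 (chr9:131125336-131125585) has no match to any of the 4 motifs in this window.
RAN: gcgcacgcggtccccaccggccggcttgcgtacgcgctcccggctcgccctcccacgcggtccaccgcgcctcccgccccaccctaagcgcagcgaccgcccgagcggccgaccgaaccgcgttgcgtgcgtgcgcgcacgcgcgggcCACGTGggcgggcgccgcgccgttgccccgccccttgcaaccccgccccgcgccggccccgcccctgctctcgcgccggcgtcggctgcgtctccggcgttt
NUP188: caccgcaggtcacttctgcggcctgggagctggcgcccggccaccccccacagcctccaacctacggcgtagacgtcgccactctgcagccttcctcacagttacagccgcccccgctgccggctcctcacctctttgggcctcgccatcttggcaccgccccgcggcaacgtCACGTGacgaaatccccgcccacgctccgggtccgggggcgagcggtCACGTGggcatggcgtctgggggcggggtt
NUP214: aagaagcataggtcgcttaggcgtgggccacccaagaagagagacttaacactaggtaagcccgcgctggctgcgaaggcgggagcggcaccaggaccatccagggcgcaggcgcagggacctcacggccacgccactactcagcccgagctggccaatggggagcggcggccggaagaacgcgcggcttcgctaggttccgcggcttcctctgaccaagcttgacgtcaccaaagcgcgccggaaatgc
With quizartinib in RPMI these genes had log2 fold changes of -1.27, -1.20 and 0.09. They are examples and do not stand for all members. SEH1L (-1.72), NUP35 (-1.62) and CSE1L (-1.54) fell further and had no E-box in the window, while NUP50 (-0.61) and KPNA3 (-0.70) had 1. Over the members with a window, the median was -1.12 for the 7 with an E-box and -0.80 for the 43 without. For the ETS motif the order was the other way, with -0.80 for the 9 with a match and -0.93 for the 41 without, and both are given as a description.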

How the data were processed

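RNA-seq counts of 12 libraries (MOLM-13, 3 per group) were analysed. The authors trimmed reads with BBDuk, aligned them to hg38 (Ensembl) with STAR (2.6.0a), added the counts of identifiers with a common gene name, and deposited whole-number raw counts. Total counts ranged from 19966546 to 31546104. How multi-mapped reads and strand were handled is not given in the sources used here. Genes with a mean of at least 1 count and at least 1 CPM were kept (12998 of 57353 names). The authors used limma. Here edgeR (4.0.16, R 4.3.3) with TMM factors and a quasi-likelihood fit over all 12 libraries (8 residual degrees of freedom) tested 6 contrasts, two-sided, Benjamini-Hochberg over all genes, with a call at adjusted p under 0.05. Groups came from the sample labels. CPM per library is scaled by TMM. Lengths, coordinates and overlaps came from GENCODE on the same genome build, and promoters from RefSeq. Levels per kb use the canonical transcript, and merged exons were tried beside it.

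Alternatives were other scalings, filters and tools (DESeq2 1.42.0, limma 3.58.1), a stricter threshold of 0.01, a replicate block, fits of only the compared groups and leaving out each library. Replicates of a group differed by more than sampling noise (chi-square per gene 1.92 to 6.11). Members named beyond the counts are those with the largest called increase and decrease in each role group and comparison, beside XPO1, KPNB1, KPNA2, CSE1L, RAN and RCC1, chosen for their roles; the other named members were chosen after their values were seen. Members and lists were chosen with earlier results of these data known. No ATM inhibitor libraries and no protein sequences were analysed here.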

Additional observations from a re-analysis of the deposited data

Results flagged for a closer look

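The effect of quizartinib differed between hBMSC-CM and RPMI in 38 of the 55 members, by the interaction term of edgeR's quasi-likelihood fit with Benjamini-Hochberg adjustment over all genes (n = 3 libraries a group). The difference was positive in 37, beside 26.4% of all genes, and negative in 1, beside 18.8% of all genes. Values are given for 16 of these 38 members, the ones with the largest called difference in a role group and those chosen for their roles. All values are log2 fold changes in hBMSC-CM minus those in RPMI. They were largest for IPO4 (1.58), RANBP1 (1.41) and SEH1L (1.11), the first on few reads. XPO5 (0.90), NUP35 (0.83), NUP62 (0.72), NUP210 (0.66), RAN (0.62), CSE1L (0.61), NUP153 (0.54) and RCC1 (0.50) followed. NUP98 (0.39), XPO1 (0.33), KPNA3 (0.24) and KPNB1 (0.20) had smaller differences. NUP214 (-0.35) was the 1 gene of these with a negative difference.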

How the results depend on the processing

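No member called in a comparison was called in the other direction under any alternative. For the drug contrasts the members called lower numbered 48 to 54 in RPMI and 45 to 53 in hBMSC-CM. Scaling by library size only shifted the median of all genes to 0.11 in both drug contrasts, and upper-quartile factors to 0.13 in RPMI and 0.09 in hBMSC-CM; each left 48 members lower in RPMI and called 1 higher, NUP214. In hBMSC-CM the share of higher among called genes went to 62.7% by library size only and 60.0% by upper-quartile factors, from near-equal numbers higher and lower. For hBMSC-CM against RPMI with vehicle, 3 members were higher and 0 lower at the threshold of 0.01 (edgeR, 2 lower at 0.05), 4 higher by library size only and by upper-quartile factors, and 0 lower with no filter on low counts. Leaving out 1 library gave 4 to 10 higher and 1 to 3 lower. With quizartinib, no filter left 1 member lower in hBMSC-CM, NUP133 being lost. The negative interactions numbered 2 with DESeq2 size factors, upper-quartile factors, the DESeq2 Wald test and limma-voom, and 1 to 3 when 1 library was left out, 3 (NUP214, IPO5 and NUP133) without quizartinib in hBMSC-CM replicate 1 and 2 (NUP214 and XPO7) without vehicle in hBMSC-CM replicate 3; the second under the scalings and tools was IPO5. The cause of these shifts was not tested.

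Uncalled differences near 0 changed sign. KPNA2 between the media with quizartinib was 0.0704 with no filter, 0.0331 with filterByExpr, 0.00508 with only the 2 groups compared and -0.027 to 0.015 without 1 library. XPO1 between the media with vehicle was -0.015 by library size only, -0.024 by upper-quartile factors, -0.000586 with only the 2 groups and -0.013 to 0.021 without 1 library. NUP35 between the media with vehicle was 0.11 to 0.24 without 1 library, lowest (adjusted p = 0.25, edgeR) without vehicle in hBMSC-CM replicate 3. IPO4 fell below the filter when only both RPMI groups or both quizartinib groups were fitted, and lost its call in hBMSC-CM under limma-voom, limma-trend and the DESeq2 Wald test. That call was also lost by library size only, by upper-quartile factors, with only the 2 groups compared and at the threshold of 0.01. The same held without quizartinib in hBMSC-CM replicate 1 or vehicle in hBMSC-CM replicate 3. Same-numbered libraries did not deviate together (correlations -0.228 to 0.0979 over 18 pairs); with the replicate block, 7 members in place of 9 were higher in hBMSC-CM with vehicle, and the other counts of members were the same. Depth was lowest for IPO4, with 7 to 57 reads.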

Other observations

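The nuclear lamina and envelope, to which the pore is anchored, were not uniform. Of 17 tested genes, 9 fell and 5 rose with quizartinib in RPMI (39.4% and 39.8% of all genes), and 9 fell and 2 rose in hBMSC-CM (33.6% and 33.5%). The B-type lamin genes LMNB1 (825 to 419 CPM, log2 fold change -0.98) and LMNB2 (258 to 104 CPM, -1.31), LBR (-0.84), the lamin B receptor, and TMPO (-1.04) fell in RPMI. The A-type lamin gene LMNA (0.20) and the linker gene SUN2 (0.55) rose there. LMNB1 and LMNB2 had positive interactions (0.61 and 0.66), while those of LMNA (-0.01) and SUN2 (-0.14) were not called. In all, 8 of the 17 had a positive interaction and 2 a negative one, beside 26.4% and 18.8% of all genes. The negative ones were SYNE1 (-1.21) and LEMD2 (-0.17). SYNE1 also had the largest rise of the list in RPMI (1.42), on only 419 reads over all libraries.

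The adaptors of one family went apart. KPNA5 rose with quizartinib in RPMI and hBMSC-CM (0.78 and 0.42), with an interaction of -0.36 (adjusted p = 0.0031, edgeR), whereas KPNA1, KPNA2, KPNA3 and KPNA4 were called lower in both with TMM factors. The NXF1 partners did so too, with NXT1 lower (-2.26 and -0.74) and NXT2 higher (0.95 and 0.51).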
